A study of Mus musculus with 14 samples.

Results

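Markers of cells other than B cells were followed in expression arrays of mouse peritoneal B-1a cells, to describe what else was detected in each sample. The markers were 37 genes with names matched exactly to the array design: 8 of macrophages, 9 of T cells, 3 of natural killer (NK) cells, 4 of mast cells, 3 of granulocytes, 1 of dendritic cells, 3 of erythroid cells and 6 of mesothelium. All 37 were found, with 46 probes among the 55681 non-control probes of the array and with 37 of its 34821 gene names. Of these genes, 8 had more than 1 probe, and every probe was followed on its own. The samples were B-1a cells labelled Bmi1 KO (7 arrays) and WT (7 arrays), from mice whose strain, age and kind of deletion are not given, and all arrays carried total RNA labelled with Cy3. In what follows KO and WT mean the arrays with those labels. The labels do not say whether samples came from separate mice, and the p-values therefore rest on the spread among the samples alone. Each genotype had 3 arrays in set 1 and 4 in set 2, the set of a sample being taken from how its title is numbered, of which there were 2 ways, and nothing used here describes the gate used to isolate the cells.

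The fluid of the peritoneal cavity holds B-1 cells together with large resident macrophages, some T cells, mast cells and a few granulocytes, and it is lined by mesothelium. B-1a cells are self-renewing B cells that carry CD5, and Bmi1 encodes a Polycomb protein of the complex that ubiquitinates histone H2A and keeps developmental genes and cell cycle inhibitors silent. Each marker class stands for proteins typical of its cells, such as lysozyme and complement C1q in macrophages, the CD3 complex in T cells, mast cell proteases, haemoglobin in red cells and simple-epithelium keratins in mesothelium. In bulk RNA, fewer cells of a type and less RNA per cell cannot be told apart.

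Values are given as log2 of the scanner's processed signal, not scaled between arrays, and are called the log2 signal. A probe is called above background where the scanner software marked at least 1 of its spots well above background on that array. Most member probes had 1 spot, while C1qc A_51_P102789, Cd4 A_52_P383089 and Cd8a A_52_P443334 had 10, so 1 marked spot of 10 sufficed for these. The 9334 probes that were above background on none of the 14 arrays had a median log2 signal between 1.71 and 2.67 on each array, so log2 signals near 2 are background. The share of all probes above background was 20.6% to 56.6% in KO (median 36.8%) and 43.5% to 63.3% in WT (median 51.6%), and the 4 arrays under 40% were all KO. The pairwise Pearson correlation between arrays over the tested probes ran from 0.55 to 0.93. Both Bmi1 probes were above background on most KO arrays, 1 on 6 KO and 6 WT arrays and the other on 5 KO and 3 WT arrays. Their log2 signals were 8.15 ± 3.29 in KO and 8.16 ± 1.97 in WT for A_55_P2170335, and 6.11 ± 2.88 in KO and 3.47 ± 1.58 in WT for A_52_P39157 (SD, n = 7 each), so neither was lower on the arrays labelled KO beyond their spread. Scaled as in the test below, KO minus WT was 1.09 ± 0.90 for A_55_P2170335 (SE; adjusted p = 0.548, limma). For A_52_P39157 it was 3.74 ± 0.87, higher in KO (SE; unadjusted p = 0.000504, adjusted p = 0.174, limma). The labels do not say which part of the gene was deleted, so it cannot be told whether these probes check the genotype. As a check of the cells themselves, 10 B cell genes such as Cd79a were all above background on every KO array, and 9 of the 10 on every WT array. Of 5 genes linked to B-1a cells, 1 was above background on all 7 KO arrays and 2 on all 7 WT arrays. The median number of the 5 above background on an array was 2 in KO and 5 in WT. Cd5 was above background on 3 KO and 6 WT arrays.

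Most of the 37 markers were seen on some arrays and missing on others. Only Csf1r, Cd4 and Lat were above background on all 14 arrays, and Gata2 and S100a8 on none. A further 11 genes were above background on 1 to 3 arrays and 21 on 4 to 13. Among all gene names of the array, 18.3% were above background on all 14 arrays and 14.5% on none. Lyz2, Fcgr1, Cd8a, Cd247, Thy1 and Krt18 were above background on every WT array and not on every KO array. With the 3 genes on all arrays they made 9 genes on every array of at least 1 genotype. The share of all gene names with such a pattern was not computed. Over all gene names, 46.9% were above background on more WT than KO arrays and 11.3% on more KO arrays.

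**Figure D1:**
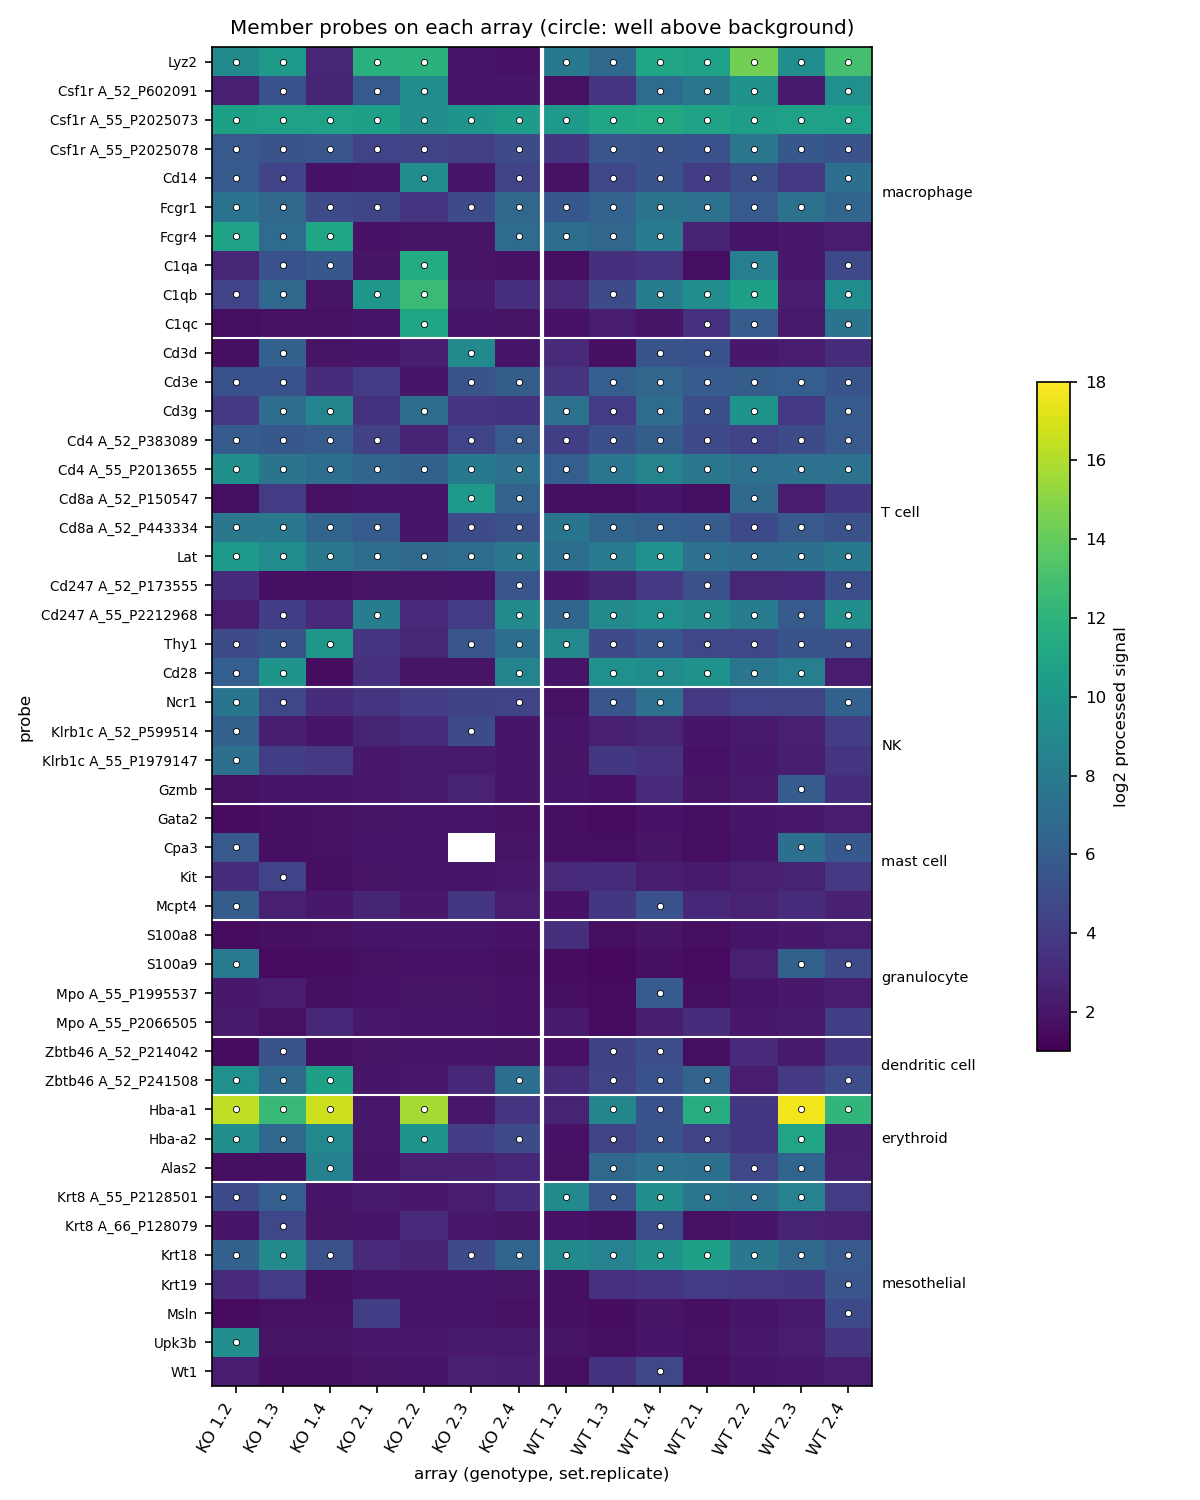
Log2 processed signal (colour) of the 46 member probes, grouped by class in rows, on the 7 KO arrays (left) and the 7 WT arrays (right), labelled by set and replicate; circles mark values well above background and the white cell is a spot left out as an outlier. Rows such as Lat are marked on all 14 arrays, while Hba-a1 runs from 2.07 to 17.61 and Gata2 is marked on none.

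The summed signal of each class, on the log2 scale, varied widely between arrays of both genotypes. Unlogged signals were summed, so the strongest probe of a class can set its sum. On KO set 2 replicate 3 the macrophage sum was 9.93, with Csf1r A_55_P2025073 alone at 9.81. On WT set 2 replicate 3 the erythroid sum was 17.63, with Hba-a1 alone at 17.61. For the 10 macrophage probes it was 9.93 to 14.04 in KO (median 11.90) and 10.65 to 14.67 in WT (median 12.14). For the 12 T cell probes it was 8.53 to 11.15 in KO (median 10.95) and 9.82 to 11.53 in WT (median 10.93). The 3 erythroid probes had the widest range of the 8 member classes, 3.63 to 16.73 in KO (median 12.53) and 3.74 to 17.63 in WT (median 9.17). The 7 mesothelial probes summed to 5.15 to 9.59 in KO (median 5.88) and 7.36 to 10.81 in WT (median 9.003), and in these 4 classes the genotypes overlapped. Beside these, the 13 probes of the 10 B cell genes summed to 16.80 to 18.80 in KO (median 17.47) and 16.95 to 18.03 in WT (median 17.05). The 7 probes of the B-1a genes summed to 9.67 to 11.55 in KO and 12.14 to 12.83 in WT, without overlap on unscaled signal. The share of all probes that separated likewise was not computed. The 75th percentile of log2 signal over all probes was itself 6.36 ± 1.73 in KO and 7.46 ± 0.34 in WT (SD, n = 7 each). After subtraction of each array's 75th percentile the B-1a sums overlapped, at 2.76 to 6.196 in KO and 4.14 to 5.75 in WT, and neither difference was tested.

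The number of member probes above background on an array was 11 to 28 of 46 in KO (median 16) and 13 to 30 in WT (median 24). As shares these were 38.8% ± 14.8 in KO and 49.7% ± 11.7 in WT (SD, n = 7 each), beside 40.6% ± 14.4 in KO and 52.3% ± 7.25 in WT for all probes. The mean member share was a little below the mean share of all probes in both genotypes. The genotypes' ranges overlapped for both shares. Of the 37 genes, 6 were above background on more KO than WT arrays, 22 on more WT than KO arrays and 9 on equal numbers. Over all gene names the corresponding shares were 11.3% with more KO arrays and 46.9% with more WT arrays.

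**Figure D2:**
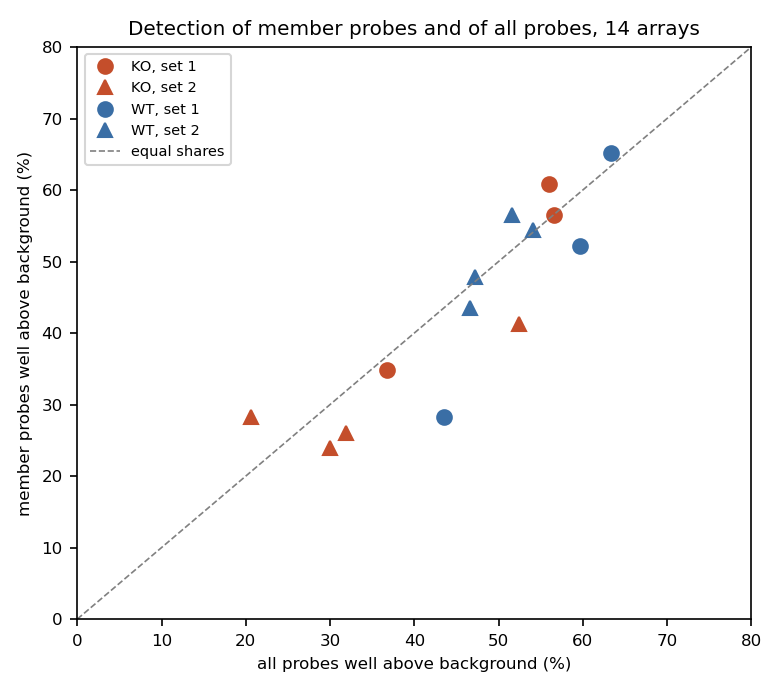
Share of the 46 member probes above background (y axis, %) against the share of all 55681 probes above background (x axis, %) on each of the 14 arrays, with KO and WT by colour and set by symbol; the dashed line marks equal shares. The KO arrays reach down to 20.6% of all probes, and the WT arrays begin at 43.5%.

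Differences were tested with limma, fitted to every probe above background on 4 or more KO arrays or 4 or more WT arrays, on log2 signal minus each array's 75th percentile, with set as a covariate. Of 29705 probes tested, 9 passed an adjusted p of 0.05 between KO and WT, 1 higher and 8 lower in KO, which is 0.0303% of those tested. None of the members was among these 9. There were 23 member probes in the test, of 20 genes, and the smallest adjusted p among them was 0.231 (limma, Benjamini-Hochberg). The other 23 member probes were too seldom above background to be tested, so those 23 that were tested are not all members. At an unadjusted p under 0.05, 3 member probes were higher in KO and 3 lower, against 8.19% of all tested probes higher and 5.37% lower. The median KO minus WT difference was 0.54 over the 23 member probes and 0.32 over all tested probes, with 12 member probes above the median of all and 11 below it.

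The 75th percentile of log2 signal, used for scaling, was 6.36 ± 1.73 in KO and 7.46 ± 0.34 in WT (SD, n = 7 each). Gata2 (a mast cell and progenitor transcription factor), at background on all 14 arrays with log2 signals of 1.50 to 2.36, had scaled values of -4.57 ± 1.86 in KO and -5.56 ± 0.58 in WT (SD, n = 7 each). A probe at background on every array thus had a higher scaled mean in KO than in WT. When arrays were scaled on the probes detected on all 14, the median of all tested probes moved to -1.02 and 19 of the 23 member probes were lower in KO, against 9 with the 75th percentile of all probes. Of all probes, 1 then passed the adjusted threshold as higher in KO and 131 as lower, and with no scaling 1 and 95 did (limma). Of the 13 member probes whose difference was recomputed under the alternatives, those of Krt8, Krt18, Cd247, Fcgr4 and Zbtb46 kept their direction in each alternative in which they were tested (21 for Fcgr4, which the filter dropped in others, 26 for Krt8 and Zbtb46, and 27 for Krt18 and Cd247), and the other 8, of Csf1r, C1qb, Cd3e, Cd4 and Lat, turned in at least 1. Within set 2, which holds 3 of the 4 arrays under 40%, 14 of the 23 tested member probes had a KO minus WT difference of one sign with scaling and of the other without it, and within set 1 none did. In 3 of the 23, Fcgr4, Alas2 and Krt8, 1 genotype was at background on every array of set 2, and no difference within set 2 is given for them.

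Several macrophage markers, the C1q genes among them, were strong on some arrays and at background on others in both genotypes. Lyz2, the lysozyme of macrophages and neutrophils, was measured by a probe at chr10:116719175-116719234 (mm9, minus strand). The C1q genes encode the chains of the first complement component and are made by tissue macrophages. Their probes lie on the minus strand of chromosome 4, C1qa at chr4:136452409-136452468 and C1qb at chr4:136436578-136436637. The probe sequences of these genes, copied from the scanner files, are shown because the values that follow turn on them, and each is free of stop codons in at least 1 frame:
Lyz2 A_51_P321150: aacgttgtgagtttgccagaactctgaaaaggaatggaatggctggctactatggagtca
C1qa A_51_P181451: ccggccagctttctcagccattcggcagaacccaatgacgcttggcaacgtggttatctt
C1qb A_51_P351860: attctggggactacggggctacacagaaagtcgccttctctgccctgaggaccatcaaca

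Lyz2 had log2 signals of 9.11, 10.23 and 2.85 in set 1 and 11.78, 11.90, 1.95 and 1.80 in set 2 of KO. In WT it had 7.87, 6.78 and 11.06 in set 1 and 10.70, 14.40, 9.34 and 13.00 in set 2. It was above background on 4 KO and all 7 WT arrays, and the genotypes overlapped. The scaled difference, KO minus WT, was -2.26 ± 1.90 (SE; adjusted p = 0.558, limma). Lyz2 and the other genes for which values are given without a place in the naming rule (Hba-a1, Hba-a2, C1qa, C1qc, Cd14, Fcgr1, Cd8a, Thy1 and those of the rarer classes) were chosen after their values were seen.

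C1qb reached 10.01 and 12.59 on KO set 2 replicates 1 and 2, and lay between 1.93 and 6.70 on the other 5 KO arrays. In WT it was between 8.19 and 10.63 on set 1 replicate 4 and set 2 replicates 1, 2 and 4, and between 2.37 and 4.88 on the other 3. The same KO array, set 2 replicate 2, was also the strongest for C1qa, at 11.44, and for C1qc, at 11.09. C1qc was near background on the other 6 KO arrays, where its highest log2 signal was 2.02, and in WT it reached 3.40, 5.89 and 7.54 on set 2 replicates 1, 2 and 4. That KO array also had the highest signal of Cd14, the lipopolysaccharide co-receptor, at 9.25, against a KO median of 4.41 and a WT median of 4.68. It was also the array with the smallest share of all probes above background, 20.6%. The scaled difference of C1qb between genotypes was 0.16 ± 1.83 (SE; adjusted p = 0.972, limma).

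The 3 probes of Csf1r, the receptor for the macrophage growth factor CSF-1, did not behave alike. Probe A_55_P2025073 had log2 signals of 9.44 to 10.72 in KO (median 10.60) and 10.17 to 11.31 in WT (median 10.75), above background on all 14 arrays. Probe A_52_P602091, whose 60 bases span 361 bases of the genome, ran from 2.03 to 9.25 in KO (median 2.76) and from 1.78 to 9.73 in WT (median 6.92). Its highest KO signals were on set 2 replicates 2 and 1, the 2 arrays with the highest C1qb. Probe A_55_P2025078 was above background on 6 KO and 6 WT arrays, at 4.20 to 5.72 in KO and 3.68 to 7.77 in WT. The scaled differences between genotypes were -0.61 ± 1.52 for A_52_P602091, 0.69 ± 0.58 for A_55_P2025073 and 0.54 ± 0.64 for A_55_P2025078, with adjusted p of 0.862, 0.559 and 0.688 (SE; limma).

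Fcgr4, an activating Fc receptor of monocytes and macrophages, was detected mainly in set 1. It was measured by a probe at chr1:172959738-172959797 (mm9, plus strand). In set 2 it was above background on KO replicate 4 alone, at 6.95, and lay between 1.82 and 2.70 on the other 3 KO and the 4 WT arrays. In set 1 its log2 signals were 10.77, 6.94 and 10.97 in KO and 7.04, 6.60 and 8.09 in WT, above background on all 6 arrays. The set 2 minus set 1 difference was -4.23 ± 0.78 on the scaled signal (SE; adjusted p = 0.0521, limma), which missed the threshold. The KO minus WT difference was 2.59 ± 0.77 (SE; adjusted p = 0.255, limma), and it was 2.32 within set 1. The genotypes overlapped in set 1, where KO replicate 3 lay below WT replicates 2 and 4. Fcgr1, the high-affinity Fc receptor, was above background on 6 KO and 7 WT arrays, with a scaled difference of -0.02 ± 0.52 (SE; adjusted p = 0.988, limma).

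The T cell markers were detected often, but the CD3 chains were seldom detected together. Of the 9 genes, 3 to 9 were above background on a KO array (median 6) and 6 to 9 on a WT array (median 8). Lat, the adaptor that links the T cell receptor to its signalling, had log2 signals of 6.80 to 10.11 in KO (median 7.80) and 7.06 to 9.60 in WT (median 7.43), above background on all arrays. Its scaled difference was 1.33 ± 0.58 (SE; adjusted p = 0.362, limma), or 1.70 within set 2 and 0.83 within set 1, where the unscaled differences were -0.21 and 0.82. The unscaled means were 7.99 ± 1.24 in KO and 7.76 ± 0.88 in WT (SD, n = 7 each), so the groups overlapped almost wholly, and the difference was -0.01 when arrays were scaled on the probes detected throughout. Cd4, the co-receptor of helper T cells, was above background on all 14 arrays with probe A_55_P2013655, at 6.30 to 9.45 in KO (median 7.37) and 6.11 to 8.58 in WT (median 7.40). Its other probe, A_52_P383089, had 2.66 to 5.96 in KO (median 5.71) and 4.19 to 5.99 in WT (median 4.87). The scaled differences were 1.11 ± 0.61 for A_55_P2013655 and 1.08 ± 0.52 for A_52_P383089, with adjusted p of 0.392 and 0.370 (SE; limma).

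The CD3 chains, which carry the T cell receptor's signal into the cell, each had their own set of arrays. Cd3e had 2.02 to 6.01 in KO (median 5.31) and 3.58 to 6.59 in WT (median 5.99), with a scaled difference of -0.12 ± 0.57 between genotypes and 1.54 ± 0.58 between set 2 and set 1 (SE; adjusted p = 0.931 and 0.200, limma). Cd3g was above background on 3 KO and 6 WT arrays, its highest signals being 8.69 on KO set 1 replicate 4 and 9.81 on WT set 2 replicate 2. Cd3d was above background on 2 KO and 2 WT arrays, at 6.26 and 9.09 in KO and at 5.44 and 5.30 in WT. On KO set 2 replicate 3, where Cd3d was at 9.09, Cd3g was at 3.60 and Cd3e at 5.34. Only on KO set 1 replicate 3, WT set 1 replicate 4 and WT set 2 replicate 1 were all 3 above background.

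Cd247, the zeta chain of the same receptor, was above background on 3 KO arrays and on all 7 WT arrays with probe A_55_P2212968. Its log2 signals were 2.29, 4.15 and 3.03 in set 1 and 8.13, 3.00, 3.98 and 9.11 in set 2 of KO. They were 6.53, 8.99 and 9.56 in set 1 and 9.03, 8.11, 5.84 and 9.42 in set 2 of WT. The 2 KO arrays at 8.13 and 9.11 lay within the WT range, and the other 5 lay below it. The scaled difference was -2.30 ± 1.01 (SE; adjusted p = 0.362, limma), with -0.13 within set 2 (unscaled -2.04) and -5.19 within set 1. Within slide 2, which held the 4 KO arrays of set 2 and 2 of its WT arrays, it was 0.59. In set 1 only 1 KO array was above background, so -5.19 is set mostly against background. The dependence on set, 5.06, had adjusted p = 0.864 (limma). Its second probe, A_52_P173555, which spans 1019 bases of the genome, was above background on 1 KO and 2 WT arrays.

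Cd8a, the co-receptor of cytotoxic T cells, was measured by probes that disagreed. Both lie on chromosome 6 (mm9, plus strand), A_52_P150547 at chr6:71323885-71323944 and A_52_P443334 at chr6:71328911-71328970. Their sequences are shown because detection of Cd8a depends on which is read, the second by its last 30 bases only:
Cd8a A_52_P150547: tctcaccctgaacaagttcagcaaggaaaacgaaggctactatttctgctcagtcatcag
Cd8a A_52_P443334: tctatctattgttactatcattttatacct

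Probe A_52_P150547 was above background on 2 KO arrays, at 10.11 and 6.44, and on 1 WT array, at 6.79. Probe A_52_P443334 was above background on 6 KO and all 7 WT arrays, at 2.06 to 7.82 in KO (median 5.91) and 4.79 to 7.61 in WT (median 5.93). It had 10 spots, any 1 of which sufficed for detection, and A_52_P150547 had 1, so the 2 probes' detection counts are not on equal terms. The KO array at 10.11, set 2 replicate 3, was also the one with the highest Cd3d. Thy1, a surface glycoprotein of mouse T cells, was above background on 5 KO and 7 WT arrays, with 9.99 on KO set 1 replicate 4 and 9.02 on WT set 1 replicate 2 and no other value over 7.15. Cd28, the costimulatory receptor, was above background on 3 KO and 5 WT arrays, at 1.58 to 9.77 in KO (median 3.44) and 1.97 to 9.63 in WT (median 8.29). The scaled differences of Thy1 and Cd28 were 1.09 ± 0.95 and -1.09 ± 1.37, with adjusted p of 0.572 and 0.708 (SE; limma).

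The members that mark NK cells, mast cells and granulocytes were each above background on at most 6 arrays, and KO set 1 replicate 2 stood out among them. On that array Klrb1c (NK1.1), by both probes, was at 6.21 and 7.27, Ncr1, the activating receptor NKp46, at 7.62, Mcpt4, a mast cell chymase, at 6.005, Cpa3, a mast cell carboxypeptidase, at 5.73, and S100a9, a calprotectin subunit of neutrophils, at 8.03. Klrb1c was above background on no WT array, and its probes were not tested. Cpa3 and S100a9 were above background on the same 3 arrays, this one and WT set 2 replicates 3 and 4, where Cpa3 was at 7.18 and 5.68 and S100a9 at 6.25 and 4.75. On all other arrays with a value Cpa3 stayed at or below 1.99 and S100a9 at or below 2.49. S100a8, the partner subunit of S100a9, was above background on no array, with a highest log2 signal of 3.33.

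Kit, the stem cell factor receptor, was above background on 1 KO array at 4.44, and on no WT array. Gzmb, a granule protease of cytotoxic cells, was above background on WT set 2 replicate 3 alone, at 5.95, and Mpo, a neutrophil granule peroxidase, on WT set 1 replicate 4 alone, at 5.85, with the other of its 2 probes at background throughout. Mcpt4 was also above background on WT set 1 replicate 4, at 5.25. Ncr1 was above background on 3 KO and 3 WT arrays. None of these probes entered the test.

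Zbtb46, a transcription factor of conventional dendritic cells, was high on part of the KO arrays. Probe A_52_P241508 had log2 signals of 9.56, 6.79 and 10.69 in set 1 and 2.03, 2.08, 2.95 and 7.12 in set 2 of KO. In WT it had 3.17, 4.51 and 5.29 in set 1 and 6.44, 2.26, 3.85 and 5.03 in set 2. All 3 KO arrays of set 1 lay above all 3 WT arrays of set 1, while the genotypes overlapped in set 2. The share of all probes with such an order in set 1 was not computed. The scaled difference was 2.63 ± 0.94 (SE; adjusted p = 0.314, limma), with 4.70 within set 1. Within set 2, where 1 KO and 2 WT arrays were above background, it was 1.07 with scaling and -0.85 without. The other probe of the gene, A_52_P214042, was above background on 1 KO and 2 WT arrays, at most 5.33.

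Haemoglobin gave both the highest and some of the lowest signals among the members. The alpha globin genes Hba-a1 and Hba-a2 lie close together on chromosome 11 and have nearly the same coding sequence, so the probe of Hba-a1 may also take up transcripts of Hba-a2. The Hba-a1 probe lies at chr11:32183955-32184014 and the Hba-a2 probe at chr11:32197245-32197304 (mm9, plus strand). The first is shown whole and the second by its last 30 bases, with the polyadenylation signal AATAAA in capitals, because they read different stretches of near-identical genes:
Hba-a1 A_55_P1962303: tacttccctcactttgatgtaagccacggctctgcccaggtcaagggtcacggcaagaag
Hba-a2 A_55_P1962299: gtctttgAATAAAgcctgagtaggaagaag

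Hba-a1 had log2 signals of 16.39, 12.50 and 16.72 in set 1 and 2.07, 15.72, 2.10 and 3.62 in set 2 of KO. In WT it had 2.69, 8.80 and 5.31 in set 1 and 11.59, 3.73, 17.61 and 12.18 in set 2. Every KO array of set 1 lay above every WT array of set 1, an order whose share over all probes was not computed. In set 2 both genotypes held arrays at background and arrays above 12. The scaled difference was 2.13 ± 2.85 (SE; adjusted p = 0.731, limma), with -3.49 within set 2 (unscaled -5.40) and 9.61 within set 1, and the dependence on set, -13.10, had adjusted p = 0.876 (limma). The searched letters AATAAA, on the printed strand only, occurred in 9 of the 46 member probes and in 10.1% of all probes of the array.

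Hba-a2 was above background on 5 KO and 4 WT arrays and highest at 9.81 on KO set 2 replicate 2 and at 10.91 on WT set 2 replicate 3, both also high in Hba-a1. Its scaled difference was 2.96 ± 1.48 (SE; adjusted p = 0.373, limma). Alas2, the erythroid enzyme that starts haem synthesis, followed the globins on some of these arrays and not on others. It was above background on 1 KO array, at 8.50, and on 5 WT arrays, at 4.62 to 7.31. On KO set 1 replicate 2 and KO set 2 replicate 2, where Hba-a1 was at 16.39 and 15.72, Alas2 was at 1.61 and 2.53, while on WT set 2 replicate 3, the highest for both globins, it was at 6.45. Its scaled difference was -1.02 ± 1.22 (SE; adjusted p = 0.693, limma).

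Of the mesothelial genes, the keratin pair Krt8 and Krt18 had lower means in KO at an unadjusted p under 0.05 and not after adjustment, and the other 4 were above background on 1 array each. Krt8 and Krt18 encode partner keratins of simple epithelia and mesothelium. Krt8 probe A_55_P2128501 lies at chr15:101828827-101828886 and probe A_66_P128079 at chr15:101827138-101827197 (mm9, minus strand). The probes, which differed in their results, are shown, the second by its last 30 bases with the letters AATAAA in capitals:
Krt8 A_55_P2128501: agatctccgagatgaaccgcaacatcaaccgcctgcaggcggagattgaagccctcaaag
Krt8 A_66_P128079: aaAATAAAgcctcagctggctctgtcaact

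Krt8 probe A_55_P2128501 had log2 signals of 4.81, 6.06 and 1.96 in set 1 and 2.22, 2.14, 2.27 and 3.17 in set 2 of KO. In WT it had 9.13, 5.52 and 9.48 in set 1 and 7.68, 7.41, 8.56 and 4.05 in set 2. It was above background on 2 KO and 6 WT arrays, and the groups overlapped through KO set 1 replicates 2 and 3 and WT set 1 replicate 3 and set 2 replicate 4. The scaled difference was -3.07 ± 0.85 (SE; adjusted p = 0.231, limma), with -3.75 within set 1. In set 2 it was above background on none of the 4 KO arrays and on 3 of the 4 WT arrays. Probe A_66_P128079 was above background on 1 KO array, at 4.71, and 1 WT array, at 5.07, and so was not tested.

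Krt18 had 2.70 to 9.03 in KO (median 5.22) and 5.73 to 10.61 in WT (median 8.51), above background on 5 KO and all 7 WT arrays. The groups overlapped, with KO set 1 replicate 3 at 9.03 and 4 of the WT arrays below that value. The scaled difference was -1.81 ± 0.73 (SE; adjusted p = 0.349, limma), with -1.49 within set 2 (unscaled -3.40) and -2.25 within set 1, and -2.37 within slide 2, which held the 4 KO arrays of set 2 and 2 of its WT arrays. The other genes of the class were seen on 1 array each: Upk3b, a uroplakin, at 9.33 on KO set 1 replicate 2, Msln (mesothelin) at 4.83 and Krt19 at 5.46 on WT set 2 replicate 4, and Wt1, a transcription factor, at 4.65 on WT set 1 replicate 4. Whether cells of this class, or the lower share of probes above background on 4 KO arrays, had a part in the keratin differences was not tested.

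**Figure D3:**
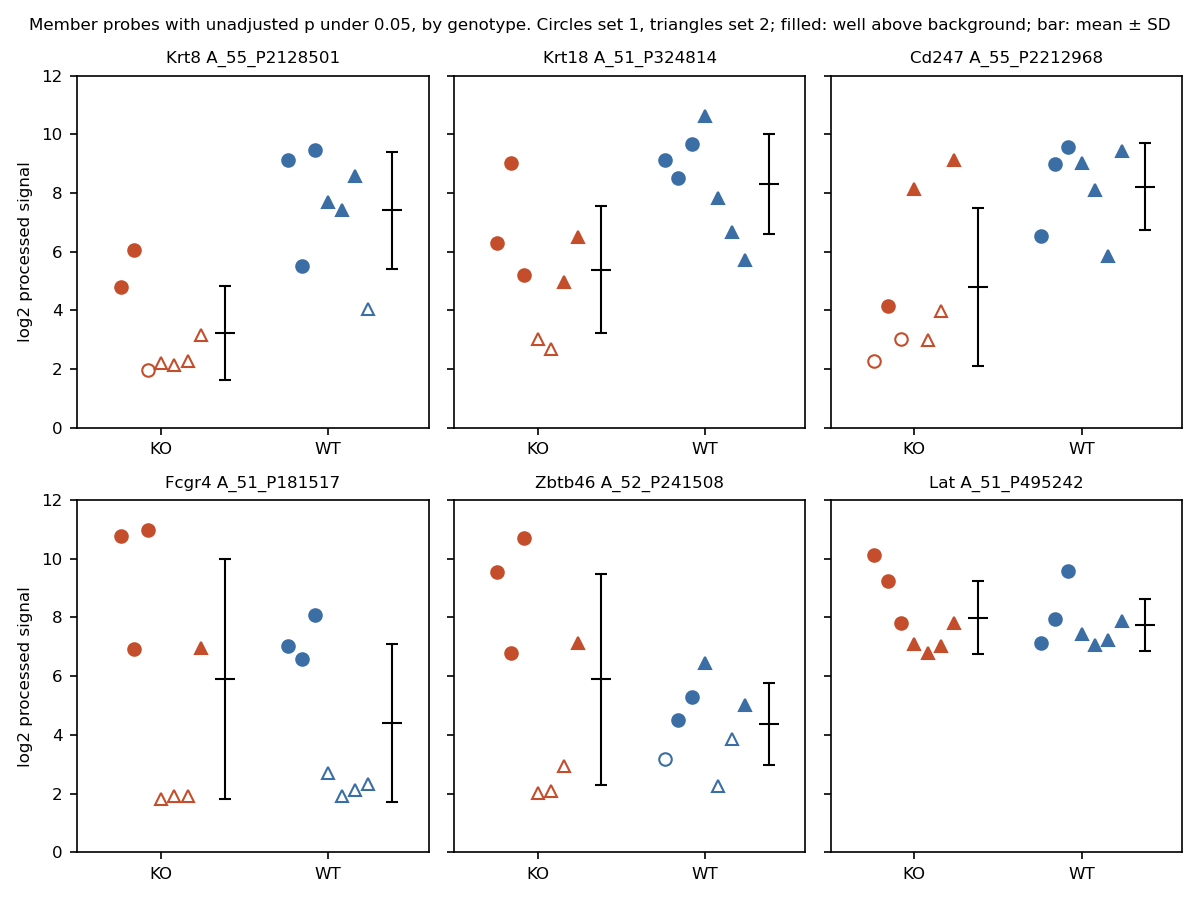
Log2 processed signal of the 6 member probes with unadjusted p under 0.05 between genotypes, for each KO array (left) and WT array (right) of every panel, filled where above background, with the mean and SD over 7 arrays as bars. Krt8, Krt18 and Cd247 have their lowest values in KO, Fcgr4 is above background on all 6 arrays of set 1 and 1 array of set 2, and Lat covers nearly the same range in both genotypes.

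Between sets, 0 of the 29705 probes passed the adjusted threshold in limma, which is 0% of those tested, although 14.6% were higher and 2.94% lower in set 2 at an unadjusted p under 0.05. Among the 23 member probes 5 were higher and 1 lower in set 2 at that level. The higher ones were Csf1r A_52_P602091, at 3.70 ± 1.53, Csf1r A_55_P2025078, at 1.52 ± 0.64, C1qb, at 4.05 ± 1.85, Cd3e, at 1.54 ± 0.58, and Cd247, at 2.78 ± 1.03, each as set 2 minus set 1 with its SE from limma. Fcgr4 was the lower one. These differences are on scaled signal. Unscaled means in set 1 and set 2 were nearly equal for Csf1r A_55_P2025078 (5.21 and 5.26) and Cd3e (5.001 and 5.086). They were 3.81 and 6.05 for Csf1r A_52_P602091, 4.86 and 7.46 for C1qb, and 5.76 and 7.08 for Cd247. For Fcgr4 they were 8.401 and 2.71. The median scaled difference was 0.64 over the member probes and 0.59 over all tested probes. Sets and slides coincide in set 1, so a difference between sets cannot be told apart from one between slides. Set 2 lay on slides 2 and 3, and slide 3 held 2 WT arrays and no KO array. Genotype and slide are thus partly mixed within set 2. The scaled KO minus WT difference was 1.73 within slide 2 and -0.62 within set 2 for Csf1r A_52_P602091, and 3.16 and 1.04 for C1qb. For Cd28 it was -3.03 and -1.10, and for Hba-a1 -6.75 and -3.49.

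The dependence of the genotype difference on set was tested in 1 model with 4 means, 1 per genotype and set. No probe passed, 0% of those tested in limma, and at an unadjusted p under 0.05 there were 4.28% with a larger and 1.10% with a smaller difference in set 2. Of the member probes, Cd247 A_55_P2212968 and Hba-a1 were under that level.

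**Figure D4:**
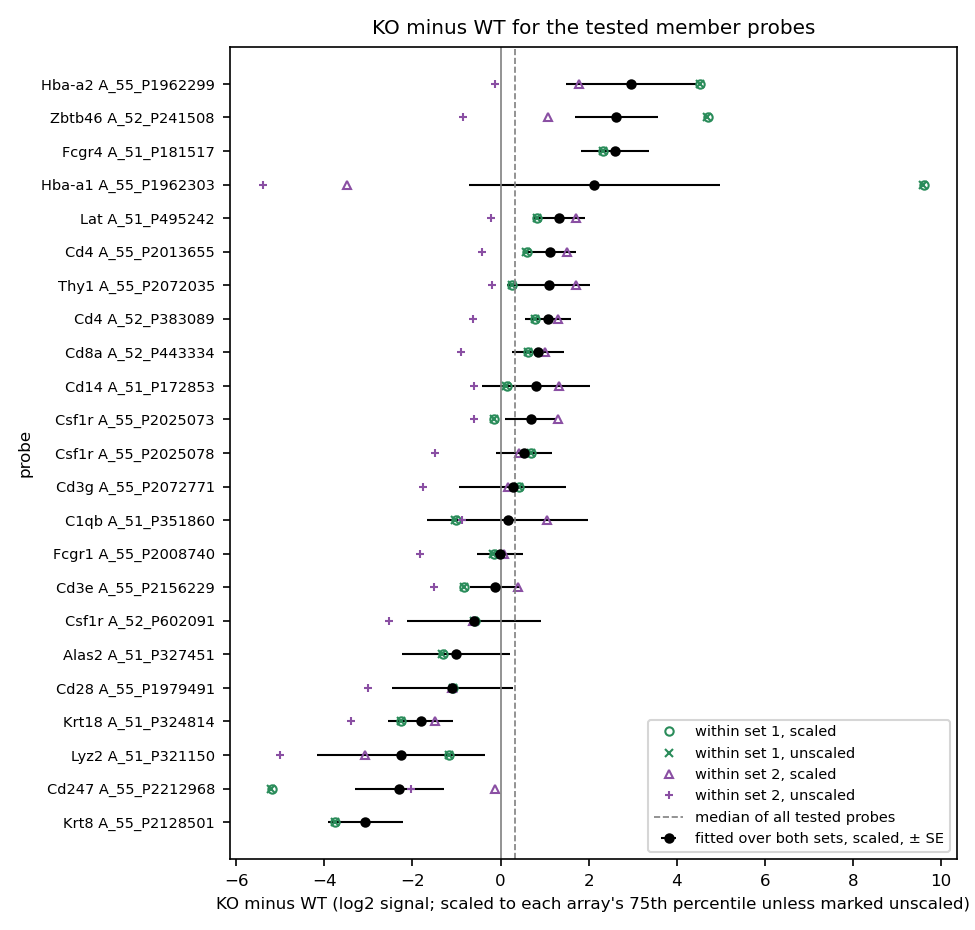
KO minus WT difference of the 23 tested member probes (x axis, log2 signal), with the value fitted over both sets to scaled signal ± SE (black), and the values within set 1 with scaling (circles) and without (x) and within set 2 with scaling (triangles) and without (+), left out where 1 genotype was at background throughout; the dashed line is the median of all tested probes, 0.32. Krt18 lies left of 0 in both sets with and without scaling, the circles and x of set 1 nearly coincide, and Hba-a1 lies at -3.49 in set 2 and 9.61 in set 1.

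A further list held 67 genes outside the 37, 61 of them markers of these classes and 6 of fibroblasts and endothelium. They had 88 probes, of which 29 were tested, and 0 passed the adjusted threshold between KO and WT (limma, smallest adjusted p = 0.312), with 3 higher and 1 lower in KO at an unadjusted p under 0.05. Of the 67 genes, 11 were above background on all 14 arrays and 16 on none. The 11 came from 6 classes. Those of macrophages were Emr1, which encodes the F4/80 antigen, Itgam, the CD11b chain that B-1 cells of the cavity also carry, and Apoe, the apolipoprotein E. Those on the T cell list were Cd2 and Cd6, both adhesion receptors, and Zap70, a kinase of T cell receptor signalling. Detection in bulk RNA does not show which cells carried these transcripts. The others were Nkg7 and Prf1 (perforin), of the granules of NK and cytotoxic T cells, Ly6g, a surface antigen of neutrophils, Siglech, a receptor of plasmacytoid dendritic cells, and Nkain4 from the mesothelial list. Detection of these classes thus differed between genes: Ly6g had log2 signals of 9.19 to 13.20 in KO and 10.95 to 12.83 in WT, while S100a8 was above background on no array. Nkain4 had 5.27 to 9.45 in KO and 6.22 to 8.50 in WT, and Tpsb2, a mast cell tryptase, was above background on 6 KO and 7 WT arrays. Of the 3 Siglech probes, 1 was above background on all arrays and the others on 5 and 1. Emr1 probe A_55_P2144386 had a scaled difference of 3.06 (adjusted p = 0.312, limma), and the gene's other probe 1.37 (adjusted p = 0.579).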

How the data were processed

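The authors' spot intensity values came, per the file headers, from Agilent Feature Extraction 10.7.3.1, with detrending and no local background subtraction, and probe positions refer to build mm9. Deposited columns used were the processed, mean and background intensity and 0 or 1 scores per spot for outliers and signal well above background. The deposited table of log2 values had a median of 3.952 on every array and followed the quantile-normalized scanner values (r between 0.99949 and 1); the tool behind it is not named.

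Outlier spots were left out, which removed 1 member value, spots of a probe were averaged, and no spot was saturated. Log2 intensity minus each array's 75th percentile was tested with limma 3.58.1 in R 4.3.3 (lmFit, eBayes, two-sided) for genotype with set as covariate, p-values being adjusted by Benjamini-Hochberg over all 29705 tested probes. The fit was tested on simulated data. No fold is given for probes at background throughout a genotype. Gene names are the array's; 43 of 46 member probes had an accession in a table of current names, and all 43 kept their symbol.

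Each genotype has numbered samples, but the correlation of deviations between same-numbered samples ran from -0.216 to 0.189, so the numbers were not used as pairs. Per-array values were to be given for tested probes of members above background on all arrays, past the adjusted threshold, or with unadjusted p under 0.05 for genotype or set. The members and lists were chosen with earlier results of these data known. Alternatives covered scaling, background correction, filters, batch terms, replicate blocks, single arrays left out and 1 probe per gene; 2 more, without the 4 arrays under 40% of probes above background and without scaling, were chosen after seeing the data. Precision is limited by the number of arrays. Figures used matplotlib.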

Additional observations from a re-analysis of the deposited data

Results flagged for a closer look

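In 20 of 77 groups of 7 arrays (1 member probe in 1 genotype, with at least 1 array above background), 1 array lay apart from the others: its gap to the nearest array was more than 0.568 of the group's range of log2 signals. Chance picks about 1 in 20 groups that were not chosen by their signal; these were kept only with an array above background, so that rate does not apply to them. In 19 of the 20 the array was high. KO set 1 replicate 2 was the array apart for Ncr1 (7.62, nearest KO array 4.68), Klrb1c A_55_P1979147 (7.27, nearest 4.17), Cpa3 (5.73, nearest 1.97), Mcpt4 (6.005, nearest 3.68), S100a9 (8.03, nearest 1.84) and Upk3b (9.33, nearest 2.23).

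Among the other KO arrays, set 2 replicate 2 was apart for C1qa (11.44) and C1qc (11.09), set 2 replicate 4 for Cd247 A_52_P173555 (5.57), set 1 replicate 3 for Zbtb46 A_52_P214042 (5.33) and set 1 replicate 4 for Alas2 (8.50).

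In WT, set 1 replicate 4 was apart for Lat (9.60), Mpo A_55_P1995537 (5.85) and Krt8 A_66_P128079 (5.07), and set 1 replicate 2 for Thy1 (9.02) and, on the low side, for Cd3e (3.58). Set 2 replicate 3 was apart for Gzmb (5.95) and Hba-a2 (10.91), set 2 replicate 2 for Cd8a A_52_P150547 (6.79) and set 2 replicate 4 for Msln (4.83). What sets these arrays apart was not tested.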

How the results depend on the processing

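The count of member probes called between KO and WT stayed 0 under all 27 alternatives, replicate block included (0), and that for the dependence on set stayed 0 under all 23. Over those settings the number of all probes called between genotypes ran from 5 to 132. Between sets the count of 0 moved to 1 with no filter, with 1 probe per gene name and with no scaling, in each case Fcgr4 (adjusted p = 0.0307, 0.0371 and 0.0255, limma), and to 10 with slide as a random block, where 11722 probes were called and the estimated correlation within slides was negative, -0.142. The 9 genes above background on every array of a genotype became 8 when every spot of a probe had to be marked. They became 16 with the scanner's mark for signal significantly positive and 16 without the 4 arrays under 40% of probes above background. With single arrays left out, where this count can only stay or rise, it ran from 9 to 10. Differences of 13 probes were the same in direction and side of the threshold in 301 of 332 recomputations and turned in 31. KO minus WT turned, when arrays were scaled on the probes detected throughout, to -0.65 (Csf1r A_55_P2025073), -0.80 (Csf1r A_55_P2025078), -1.18 (C1qb), -0.26 and -0.23 (Cd4 A_52_P383089 and A_55_P2013655) and -0.0091 (Lat). Csf1r A_55_P2025073 and C1qb turned to -0.57 and -0.84 with quantile scaling, -0.54 and -0.25 with normexp, and -0.57 and -0.84 with the deposited values, while Cd3e turned to 0.067 with normexp. Csf1r A_52_P602091 turned to 0.50 with slide as a fixed block, and C1qb to -0.18 with slide as a random block. Without the 4 arrays, Csf1r A_55_P2025073, Csf1r A_55_P2025078 and C1qb turned to -0.46, -0.29 and -2.00; without scaling they turned to -0.41, -0.56 and -0.94, and Cd4 A_52_P383089 to -0.023. With single arrays left out, KO minus WT ran from -1.70 to 0.24 for Csf1r A_52_P602091, from -1.21 to 1.11 for C1qb and from -0.35 to 0.12 for Cd3e. The cause of these turns was not tested. No paired samples were established, so the replicate block is given as a count alone.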

Other observations

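Genes of resident peritoneal macrophages outside the 37, chosen after their values were seen, were above background on some of the arrays with strong C1q signal. Gata6, the transcription factor that defines large peritoneal macrophages, was highest at 8.14 on KO set 2 replicate 2 and at 7.33 on WT set 2 replicate 2, and Timd4, a phosphatidylserine receptor of resident macrophages, at 8.48 and 8.76 on the same arrays. Marco, a scavenger receptor, was at 13.04 and 11.97 there, and in KO it was also at 10.47 and 10.99 on set 1 replicates 2 and 3. Cma1, a mast cell chymase, was above background on 1 KO and 4 WT arrays, among them the 3 arrays with Cpa3, at 10.21 on KO set 1 replicate 2 and at 10.30 and 9.76 on WT set 2 replicates 3 and 4. The beta globin Hbb-b1 was above background on 3 KO arrays, at 8.68, 6.74 and 9.95, and on 1 WT array, at 11.58, each of which also had Hba-a1 at or above 15.72. These are values on single arrays and were not tested.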
